A study of Mus musculus with 3 samples.

Results

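The genes described here are 10 regulators of erythroid cells and blood stem cells: Klf1, Gata1, Zfpm1, Gfi1b, Tal1, Lmo2, Gata2, Runx1, Myb and Epor. They were chosen by name, and were found on the array through the RefSeq accession of each probe. All 10 were measured, among 13184 genes in all, by 11 probes on 20 spots. Of these, 9 encode transcription factors or the non-DNA-binding cofactors Zfpm1 and Lmo2. Epor does not match the name of a transcription regulator, since it encodes the receptor for erythropoietin.

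RNA was taken from whole mouse embryos of mixed background. The 3 groups were MafF-/-:MafG-/-:MafK-/- embryos at stage E10.5, called triple null, MafF-/-:MafG+/+:MafK-/- embryos at E10.5, called MafG-intact, and MafG-intact embryos a day younger, at E9.5. Every group therefore lacked MafF and MafK, and no group was wild type. Each group was 1 array of RNA from a pool of 3 embryos, so differences have no replicate error, none was tested, and precision is limited by how few arrays there are.

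The small Maf proteins MafF, MafG and MafK bind DNA as partners of CNC and BACH family factors, among them the erythroid factor NF-E2. GATA1, with its cofactor FOG1, and KLF1 turn on the globin, haem and membrane genes of red cells. TAL1, LMO2 and LDB1 join GATA factors in a complex on erythroid enhancers, GFI1B represses genes in the same cells, and GATA2, RUNX1 and MYB act earlier, in stem and progenitor cells. In the mouse embryo, primitive red cells from the yolk sac circulate before definitive blood cells form in the yolk sac and the aorta and settle in the liver.

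Whole embryo RNA was checked by markers. Endothelial markers were well above background for 18 of 18 genes on every array. Of 28 measured erythroid genes described as targets of GATA1 and KLF1, 27 were above background on the triple null E10.5 array and 28 on each MafG-intact array. Mafg itself gave no signal well above background in triple null RNA, and was lower there by at least 173-fold against MafG-intact E10.5 and by at least 253-fold against MafG-intact E9.5. The sex of the pools also differed: only the MafG-intact E10.5 array detected Xist, and only the other 2 arrays detected Uty, Kdm5d, Eif2s3y and Ddx3y, which lie on the Y chromosome. Slide 1 and scan 1 held every array.

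Promoter sequence was available for 9 of the 10 genes, all but Lmo2, as 12 windows of 300 bases (250 before to 50 after each start site) from RefSeq, build GRCm38.p6. The 4 windows that hold a GATA site are shown, because GATA1 and GATA2 bind such sites. All 4 genes were lower by 1.5-fold or more in triple null than in MafG-intact embryos at E10.5. So were Gata1, Gata2 and Runx1, whose windows hold no GATA site, while Zfpm1 and Myb, also without one, were not. A link between site and level was not tested. Each window shown is read 5′ to 3′ on the strand of its gene. Capitals mark GATA sites (GATA with an A or a T before it and an A or a G after it, on either strand) and TGCTGA, the core that small Maf proteins bind, also on either strand.
Klf1 (chr8:84901732-84902031, plus strand): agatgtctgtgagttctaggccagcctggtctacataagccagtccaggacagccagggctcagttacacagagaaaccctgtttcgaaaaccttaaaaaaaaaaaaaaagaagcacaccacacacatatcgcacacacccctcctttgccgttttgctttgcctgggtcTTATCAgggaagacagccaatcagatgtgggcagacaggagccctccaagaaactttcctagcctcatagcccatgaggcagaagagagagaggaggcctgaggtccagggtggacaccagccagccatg
Gfi1b (chr2:28621933-28622232, minus strand): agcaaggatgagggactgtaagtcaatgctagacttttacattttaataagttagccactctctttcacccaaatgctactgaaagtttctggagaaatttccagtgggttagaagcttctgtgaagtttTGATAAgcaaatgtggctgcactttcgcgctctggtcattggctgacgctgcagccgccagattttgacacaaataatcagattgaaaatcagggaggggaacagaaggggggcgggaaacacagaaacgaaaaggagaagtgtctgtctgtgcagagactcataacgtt
Tal1, first promoter (chr4:115056176-115056475, plus strand): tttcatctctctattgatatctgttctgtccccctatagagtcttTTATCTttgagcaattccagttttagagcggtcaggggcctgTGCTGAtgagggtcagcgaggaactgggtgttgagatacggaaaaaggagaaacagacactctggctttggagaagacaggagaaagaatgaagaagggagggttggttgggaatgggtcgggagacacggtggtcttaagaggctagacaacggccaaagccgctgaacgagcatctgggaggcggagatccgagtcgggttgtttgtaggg
Epor (chr9:21963527-21963826, minus strand): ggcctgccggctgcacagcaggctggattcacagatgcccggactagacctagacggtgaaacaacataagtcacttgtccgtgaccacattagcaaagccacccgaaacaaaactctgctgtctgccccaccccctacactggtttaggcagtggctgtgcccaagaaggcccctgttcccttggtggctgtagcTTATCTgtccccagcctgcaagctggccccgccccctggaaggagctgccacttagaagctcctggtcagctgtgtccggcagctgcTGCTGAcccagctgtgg
The GATA site began at position -80 from the start site in Klf1, -120 in Gfi1b, -205 in the first Tal1 promoter and -54 in Epor.

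These matches were set beside all 32851 promoter windows of the same length. A GATA site lay in 4 of the 12 windows, against 29.8% of all windows. The small Maf core lay in 4 of 12, against 19.5%: in the first Tal1 promoter at -163, in the second at -208, in Zfpm1 at -114 and in Epor at 33. The NF-E2 core (TGAGTCA) lay in 0 of 12, against 5.20%. CACCC, the box that KLF1 binds, lay in 9 of 12, against 57.5% of all windows, and the E-box CAGNTG, which TAL1 binds with its E protein partners, lay in 6 of 12, against 51.4%. TGTGGT, bound by RUNX factors, lay in 3 of 12, against 16.8%; all were searched on both strands. A letter match is a description and not a binding site, a window without one says nothing of the factor, and enhancers outside the window were not read.

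Across the 10 genes, levels were lowest in the triple null pool for most. Levels are given as log2 intensity relative to the 75th percentile of the same array, a scale on which different genes cannot be ranked against each other. In 7 of the 10 genes (Klf1, Gata1, Gata2, Tal1, Gfi1b, Runx1 and Epor) the triple null E10.5 array was lowest, the MafG-intact E10.5 array highest and the MafG-intact E9.5 array between them. Zfpm1, Lmo2 and Myb had other orders. The share of all genes with the order of the 7 was not counted. Compared with MafG-intact E10.5, 7 of 10 genes were lower by 1.5-fold or more in triple null embryos, where 9.72% of the 12529 genes detected on both arrays were. At 2-fold the count was 3 of 10 (Klf1, Gfi1b and Runx1), where 4.47% of all genes were lower, and at 3-fold it was 2 of 10 (Klf1 and Gfi1b), where 1.92% were. No member was higher by any of these folds. The median log2 difference was -0.74 over the 10 genes and 0.06 over all genes, whose middle 80% ran from -0.57 to 0.41.

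**Figure D1:**
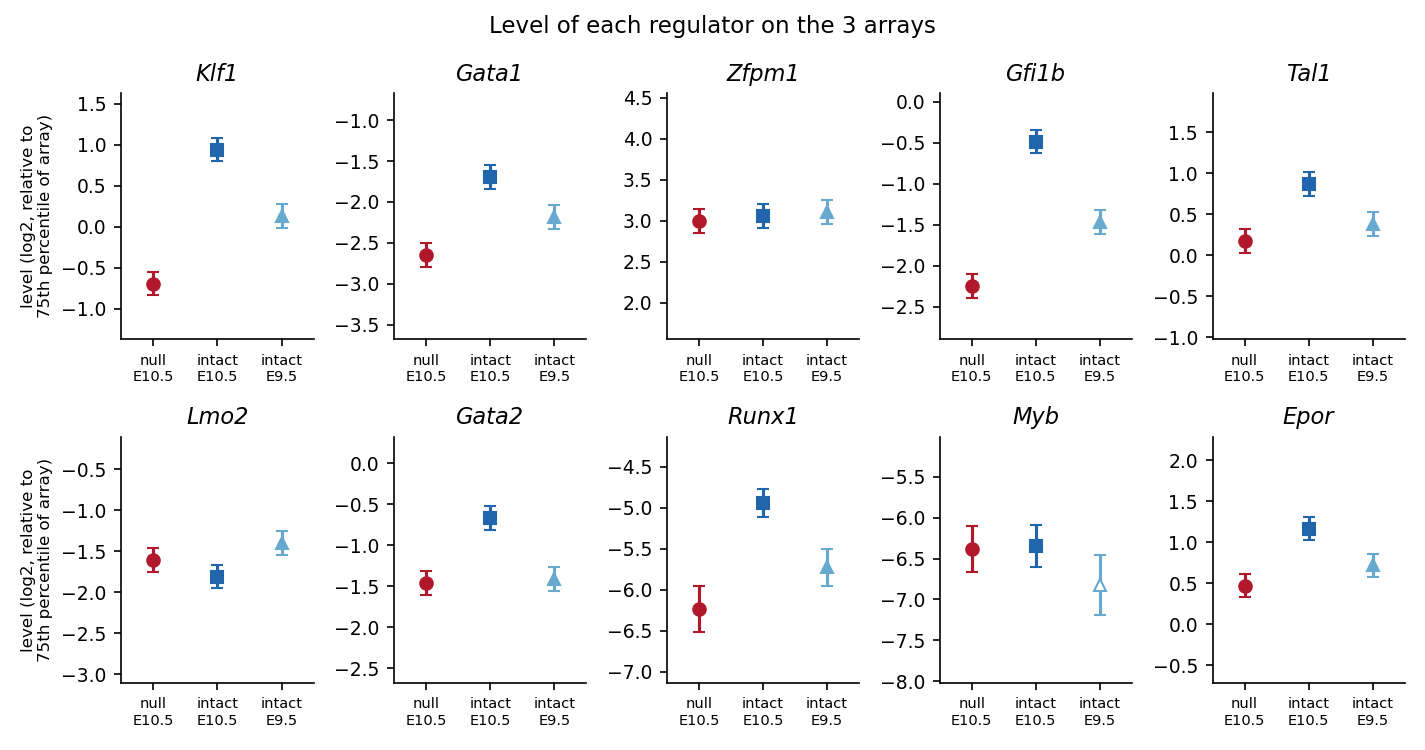
Level of each regulator on the 3 arrays (y axis, log2 intensity relative to the 75th percentile of the array; axes of equal span, centred on each gene). Each point is 1 array of 3 pooled embryos, with the triple null E10.5 array (null) left of both MafG-intact arrays (intact); bars are the error of the spot as the scanner software gives it, and the open Myb point was not well above background. Klf1 and Gfi1b show the widest spacing, and Zfpm1 lies within its bars on all 3 arrays.

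The scanner software gives an error for each spot, about 10% of its signal, or 0.14 on the log2 scale, for all members but Runx1 and Myb. It covers the spot and the scan and not the embryos. For most members the error of a difference between 2 arrays was 0.20, and between the triple null and MafG-intact E10.5 arrays 7 of 10 differences were beyond 2 such errors. Those within it were Lmo2, Zfpm1 and Myb. How many of all genes were beyond 2 such errors was not counted in any comparison. The 3 comparisons share arrays, so their differences are given side by side and not counted as separate evidence. Because whole embryos were used, fewer cells of a type and less RNA per cell cannot be told apart.

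Levels of the factors that drive red cell genes were lowest in triple null embryos, while their cofactor Zfpm1 stayed level within the spot error. Klf1, the erythroid Krüppel-like factor that binds the CACCC box of the adult beta-globin promoter, had a level of -0.69 on the triple null E10.5 array, against 0.94 on MafG-intact E10.5 and 0.13 on MafG-intact E9.5. The background-subtracted intensities behind these levels were 666 for triple null E10.5, against 2727 for MafG-intact E10.5 and 1163 for MafG-intact E9.5. Klf1 was thus 3.11-fold lower than MafG-intact E10.5 (a log2 difference of -1.64), and 221 of the 12529 genes, Klf1 among them, were at or below that difference. It was also lower than in the pool a day younger, by 1.77-fold (-0.82), where 101 of 12521 genes were at or below its value. Over the day between the MafG-intact pools Klf1 was 1.76-fold higher (0.81).

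Gata1, the zinc finger factor required for red cell and megakaryocyte maturation, is X-linked and its probe was printed 10 times. Its mean level was -2.65 on the triple null E10.5 array, against -1.69 on MafG-intact E10.5 and -2.18 on MafG-intact E9.5. The 10 spots ran from -2.74 to -2.55 on the triple null E10.5 array, against -1.77 to -1.62 on MafG-intact E10.5 and -2.24 to -2.13 on MafG-intact E9.5. The spots of the 3 arrays did not overlap, which describes printing and scanning of 1 pool each. The triple null level was 1.95-fold lower than MafG-intact E10.5 (-0.96), just short of the 2-fold threshold, with Runx1 at 2.44-fold the nearest member past it. Against E9.5, Gata1 was 1.38-fold lower (-0.47), and between the MafG-intact pools it was 1.41-fold higher at E10.5 (0.49). Since the pools differed in sex, X-linked genes were read as a group: the median difference of the triple null from the MafG-intact E10.5 array was 0.06 over 424 X-linked genes and 0.06 over all genes. That median says nothing of a single gene, and in this comparison sex and genotype cannot be told apart.

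Zfpm1, which encodes FOG1, the cofactor through which GATA1 activates and represses many of its genes, had levels of 2.99 on the triple null E10.5 array, against 3.05 on MafG-intact E10.5 and 3.11 on MafG-intact E9.5. These 3 values lay within the spot error of each other. The differences were -0.06 from MafG-intact E10.5 and -0.12 from E9.5 for the triple null pool, and -0.06 between the MafG-intact pools.

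Gfi1b, a zinc finger repressor needed for red cells and platelets that works through LSD1 and CoREST, had the largest difference of the 10 genes between the E10.5 arrays, although with normexp Klf1, at -1.55, was past Gfi1b, at -1.49. The Gfi1b level was -2.24 on the triple null E10.5 array, against -0.48 on MafG-intact E10.5 and -1.47 on MafG-intact E9.5, so the triple null array was lowest. The gene was 3.39-fold lower than MafG-intact E10.5 (-1.76), with 178 of 12529 genes at or below that difference, and 1.72-fold lower than E9.5 (-0.78), with 115 of 12521 at or below. In MafG-intact embryos it was 1.97-fold higher at E10.5 than at E9.5 (0.98), just short of 2-fold.

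**Figure D2:**
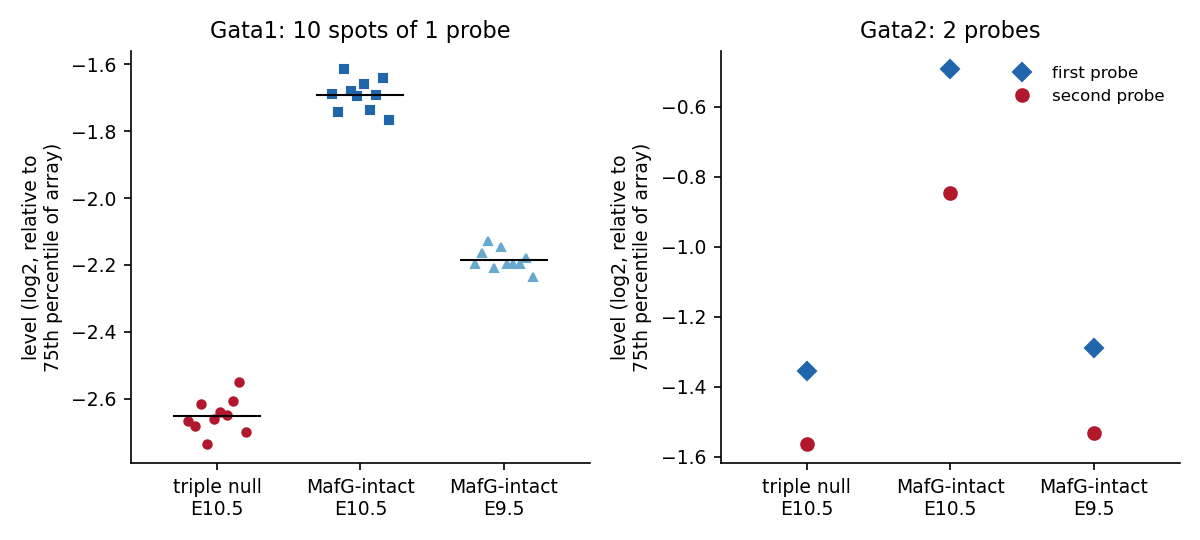
Repeated measurements of Gata1 (left, 10 spots of 1 probe per array, with the mean as a line) and Gata2 (right, 2 probes) as levels on the log2 scale relative to the 75th percentile of the array, with the triple null E10.5 array left of both MafG-intact arrays. The Gata1 spots of the 3 arrays do not overlap, and both Gata2 probes are highest in MafG-intact E10.5 RNA, with the triple null E10.5 and MafG-intact E9.5 arrays close together.

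The genes of the TAL1 complex did not move together. Tal1, a helix-loop-helix factor without which no blood forms in the mouse, had a level of 0.18 on the triple null E10.5 array, against 0.86 on MafG-intact E10.5 and 0.38 on MafG-intact E9.5. It was 1.61-fold lower than MafG-intact E10.5 (-0.69), while its difference from the E9.5 pool, -0.20, was within 1 spot error. It was 1.40-fold higher in the MafG-intact E10.5 pool than a day before (0.49).

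Lmo2, the LIM-only protein that bridges TAL1 and GATA factors, was the only member above the MafG-intact E10.5 array in the triple null pool. Its levels were -1.61 on the triple null E10.5 array, against -1.81 on MafG-intact E10.5 and -1.40 on MafG-intact E9.5. The difference of 0.20 was within 1 spot error. Between the MafG-intact pools Lmo2 was 1.33-fold lower at E10.5 (-0.41), the opposite side from Tal1. The partner that LMO2 binds, Ldb1, had differences of 0.01 from MafG-intact E10.5 and -0.06 from E9.5 in the triple null pool. Ldb1 is one of several genes named for their roles after their values were seen, with Lyl1, Cbfb, Gata3, Lmo1, Nfe2 and Kit. Jak2, Stat5a, Stat5b, Cish, Pim1, Socs2, Bcl2l1 and Socs3 were named in the same way.

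Of the 27 partners and cofactors of these factors, all 27 were above background on every array, and 0 were 2-fold apart in any of the 3 comparisons. Over all genes, 560 of 12529 were 2-fold lower in triple null than in MafG-intact E10.5 embryos and 123 higher. Between the MafG-intact pools 516 of 12514 were higher at E10.5 and 134 lower. Between triple null and E9.5, 66 of 12521 were lower and 32 higher. So 0 of 27 is near these shares, which also stand beside the counts of the later lists. Between the triple null and MafG-intact E10.5 pools the median difference was -0.74 over the 10 regulators, against 0.07 over these partners. The 2 farthest apart were Ssbp4, of the family that stabilises LDB1 (-0.73), and Runx1t1, an ETO family corepressor (-0.66). Lyl1, a close relative of Tal1 that pairs with the same partners, differed by -0.51.

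The stem and progenitor cell factors differed in signal as well as in pattern. Gata2, the GATA factor of stem and early progenitor cells, had a level of -1.46 on the triple null E10.5 array, against -0.67 on MafG-intact E10.5 and -1.41 on MafG-intact E9.5. The triple null pool was 1.73-fold lower than the MafG-intact E10.5 pool (-0.79) and differed from the E9.5 pool by -0.05, within the spot error. Its 2 probes gave -0.86 and -0.72 for the first of these differences and -0.07 and -0.03 for the other. Between the MafG-intact pools Gata2 was 1.67-fold higher at E10.5 (0.74). Its order was that of Klf1, Gata1 and Gfi1b, but the triple null array was lower than E9.5 by more than 2 spot errors for those 3 genes and by less than 1 for Gata2; the contrast between the genes was not tested.

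Runx1, the factor that stem cells need to form from endothelium, was dim. Its intensities after background subtraction were 14.3 on the triple null E10.5 array, against 46.0 on MafG-intact E10.5 and 20.1 on MafG-intact E9.5. The local background at its spot was 45.0 to 49.5. The levels were -6.23 on the triple null E10.5 array, against -4.95 and -5.73 on the MafG-intact arrays, so the triple null pool was 2.44-fold lower than MafG-intact E10.5 (-1.29) and 1.42-fold lower than E9.5 (-0.50). These values rest on the background subtraction. With normexp background correction, the Runx1 differences were -0.05 and 0.05, and the 2-fold difference was gone. Normexp estimates background differently and also adds an offset of 50, more than any Runx1 intensity above. Such an offset shrinks the differences of a dim gene by itself, and the effects were not separated.

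Myb, a factor of definitive progenitors, was dimmer still. Its intensities were 12.9 on the triple null E10.5 array, against 17.5 on MafG-intact E10.5 and 9.40 on MafG-intact E9.5, where it was not well above background. The 2 E10.5 arrays differed by -0.04. Against the E9.5 signal, the measured Myb difference was 0.44 in triple null E10.5 embryos, with a spot error of 0.46, and 0.48 in MafG-intact E10.5 embryos, with a spot error of 0.45. The E10.5 difference was within the spot error, and the other 2 were about as large as it.

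Epor, the receptor that keeps late erythroid progenitors alive, had a level of 0.47 on the triple null E10.5 array, against 1.17 on MafG-intact E10.5 and 0.72 on MafG-intact E9.5. It was 1.62-fold lower than MafG-intact E10.5 (-0.70), close to the difference of Tal1, and 1.19-fold lower than E9.5 (-0.25). In MafG-intact embryos Epor was 1.37-fold higher at E10.5 (0.45).

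**Figure D3:**
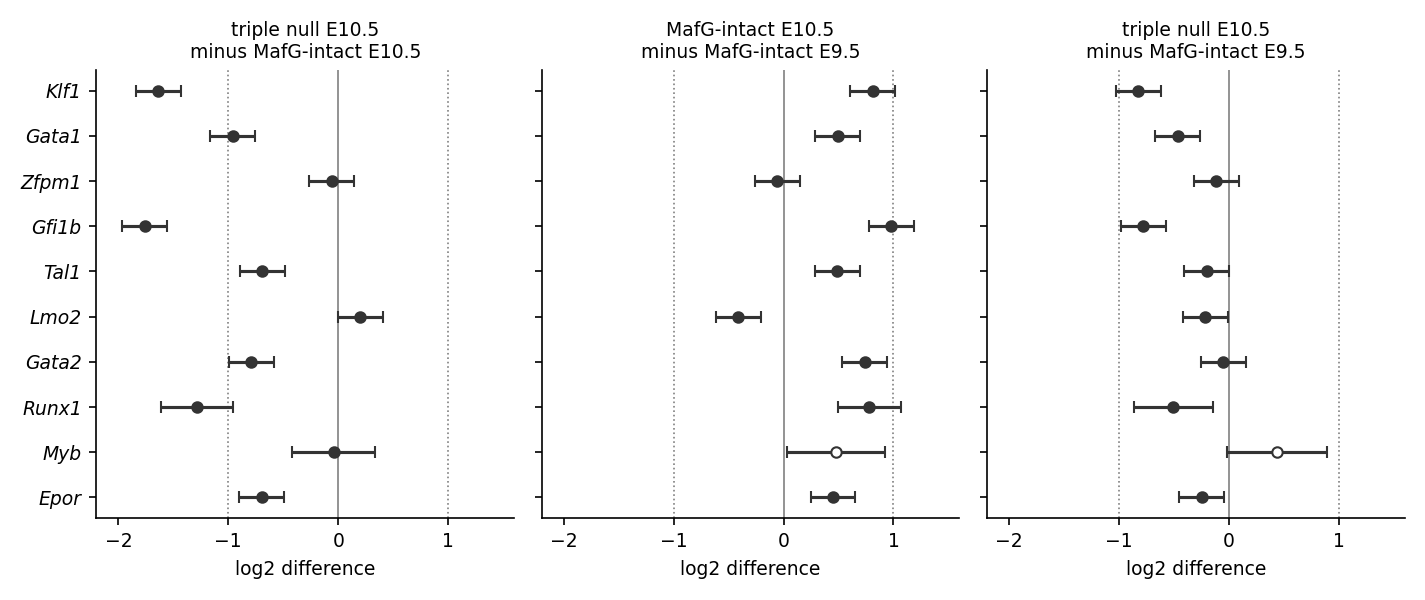
Log2 differences of the 10 genes in the 3 comparisons (x axis; positive is higher in the first group of the panel title). Bars are the scanner's spot error of a difference, dotted lines mark 2-fold, and open points are Myb where 1 array was not well above background. In the left panel 7 genes lie clear of 0 on the lower side, in the middle panel 7 filled points lie above 0, and in the right panel all 9 filled points lie at or below 0.

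Over a day of development in MafG-intact embryos, 9 of the 10 genes could be compared, and 7 of these were higher at E10.5. Of all genes, 5351 of 12514 were higher. These pools also differed in sex-linked transcripts, with Xist detected only at E10.5 and Y-linked genes only at E9.5. In this comparison sex and day cannot be told apart. The count at least 1.5-fold higher was 4 of 9 (Klf1, Gata2, Gfi1b and Runx1), where 9.26% of 12514 genes were. At 2-fold it was 0 of 9, where 4.12% of all genes were higher, and at 3-fold 0 of 9, where 1.56% were. The median difference was 0.49, against -0.05 over all genes. The differences of 8 of the 9 genes were beyond 2 spot errors, all but Zfpm1.

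Between the triple null E10.5 and MafG-intact E9.5 pools, which differ in genotype and by a day but carried the same sex-linked transcripts, differences were smaller over all genes. The middle 80% of 12521 genes ran from -0.22 to 0.21, and the median was 0.01. All 9 comparable members lay below 0, where 6074 of 12521 genes did. The median of the members was -0.25. At least 1.5-fold lower were 2 of 9 (Klf1 and Gfi1b), where 1.65% of all genes were, while 0 of 9 were 2-fold lower, where 0.527% were, and 0 of 9 were 3-fold lower, where 0.184% were. Klf1, Gata1 and Gfi1b were beyond 2 spot errors. Lmo2, Runx1 and Epor lay between 1 and 2 errors, and Gata2, Tal1 and Zfpm1 were within 1.

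**Figure D4:**
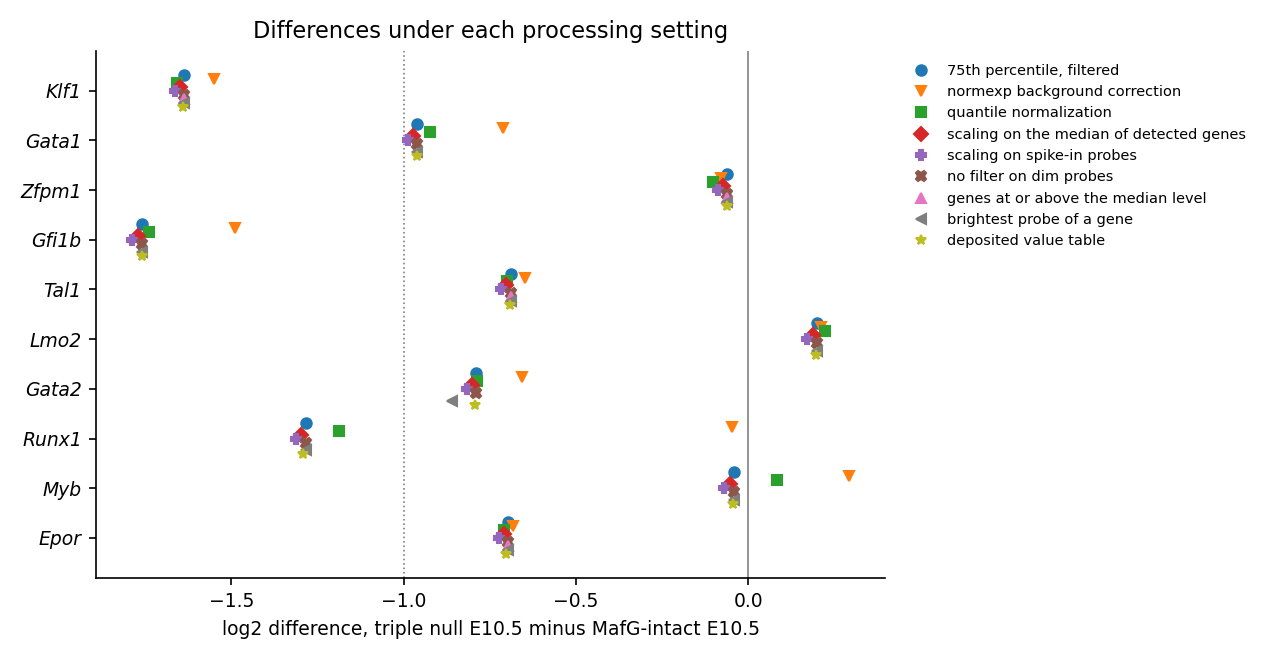
Log2 difference of each gene between the triple null E10.5 and MafG-intact E10.5 arrays (x axis) under 9 settings of processing; the dotted line marks 2-fold. Points of a gene fall together except under normexp background correction. There Gata1 moves to -0.71, Gfi1b to -1.49, Runx1 to -0.05 and Myb to 0.29. Myb also lies above 0 under quantile normalization, at 0.08. Several settings cannot move a regulator of 1 probe.

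Paralogues of the factors showed no shared direction. Of 25 measured, 1 was lower by 2-fold or more in triple null than in MafG-intact embryos at E10.5 and 0 were higher, with a median of -0.14. That gene was Runx2, the bone factor, at -1.83 from a dim signal, at -0.40 with normexp and at -0.61 where probes that no array detected were kept. The GATA family member Gata3 differed by -0.25 and Lmo1, a neural relative of Lmo2, by -0.85. Cbfb, the partner that RUNX proteins share, differed by 0.12.

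Other transcription factors of blood cells had a median of -0.07 over 20 genes, with 1 lower by 2-fold or more and 0 higher. The 1 was Bcl11a, the repressor of embryonic globin genes that is also used in neurons, with levels of -3.39 on the triple null E10.5 array, against 0.09 on MafG-intact E10.5 and -3.78 on MafG-intact E9.5. It was 11.2-fold lower than MafG-intact E10.5 (-3.48, and -2.74 with normexp). Against the E9.5 pool it was 1.31-fold higher (0.39), so its order was not that of Klf1, Gata1 and Gfi1b. Nfe2, the CNC subunit that pairs with small Maf proteins to form NF-E2, differed from MafG-intact E10.5 by -0.62 and from E9.5 by 0.11.

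The cytokine pathway around Epor had a median of 0.04 over 21 genes. Of these, 2 were lower by 2-fold or more in triple null embryos and 1 was higher. Among the lower was Tfr2, a partner of the erythropoietin receptor (-1.24, and -0.88 with normexp). The higher gene was Epo, which encodes the hormone that EPOR binds, at 1.12 from 2 probes (1.03 and 1.21), and at 0.57 with normexp. Epo was dim, with levels of -5.15 on the triple null E10.5 array, against -6.26 on MafG-intact E10.5 and -5.17 on MafG-intact E9.5. Ligand and receptor thus lay on opposite sides of the MafG-intact E10.5 array, while against E9.5 Epo differed by 0.02 and Epor by -0.25. Downstream of the receptor, the kinase Jak2 differed from MafG-intact E10.5 by 0.04, Stat5a by -0.66, Stat5b by -0.24 and the STAT5 target Cish by -0.85. In the same list Pim1 differed by 0.57, Socs2 by 0.25, Bcl2l1 by 0.10 and Socs3 by -0.02, values not read under other processing. Of the 21 genes, 10 lay below 0 and 11 above, and the activity of the pathway was not tested. Kit, the stem cell factor receptor, differed by 0.37.

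Erythroid genes described as targets of GATA1 and KLF1 were lower with their regulators. Of 27 above background on both arrays, 13 were lower by 2-fold or more in triple null than in MafG-intact embryos at E10.5 and 0 were higher, with a median of -0.98. Hbb-bt, an adult beta-globin gene, was 27.6-fold lower (-4.79; its 4 probes may share near-identical beta-globin transcripts). The Rh antigen gene Rhd was at -2.80 and the blood group gene Kel at -1.92. Cldn13 was below background in the triple null pool, at least 21.0-fold lower. Against E9.5, 2 of 27 targets were at least 2-fold lower, with a median of -0.28; Hbb-bt was among them at -1.92, though at -0.86 by its brightest probe. Over the day in MafG-intact embryos, 9 of 28 were higher by 2-fold or more, with a median of 0.56. The median log2 level of the 28 genes was -1.18 on the triple null E10.5 array, against 0.19 on MafG-intact E10.5 and -0.90 on MafG-intact E9.5.

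**Figure D5:**
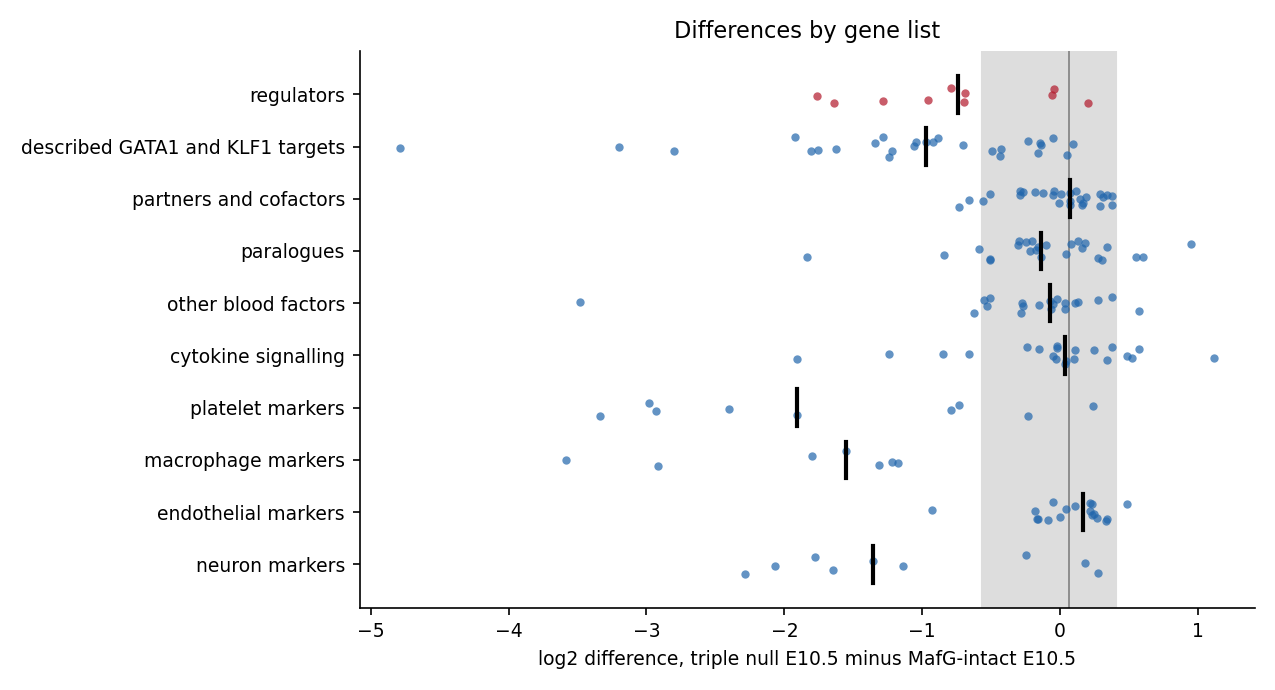
Log2 difference between the triple null E10.5 and MafG-intact E10.5 arrays (x axis) for each gene above background on both, by list; black bars are list medians and the grey band is the middle 80% of all genes. Regulators have a median of -0.74, between partners and cofactors at 0.07 and described targets at -0.98, while the medians of platelet (-1.91), macrophage (-1.55) and neuron markers (-1.36) are lower still and that of endothelial markers is 0.16.

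Markers of other cells that use these factors moved beside them. Megakaryocytes use GATA1, FOG1, GFI1B and TAL1, and of 9 of their markers above background on both arrays 5 were lower by 2-fold or more in triple null than in MafG-intact embryos and 0 higher. Their median was -1.91. Gp9 was at -3.34, Treml1 at -2.98, the platelet chemokine gene Pf4 at -2.93 and Gp1ba at -2.40. With normexp Gp9 was at -1.72, Treml1 at -1.91 and Gp1ba at -0.98. Ppbp was at least 46.4-fold lower. The summed level of 11 markers, in units of the array's 75th percentile, was 2.28 on the triple null E10.5 array, with Ppbp and Gp5 not above background, against 6.85 on MafG-intact E10.5 and 3.11 on MafG-intact E9.5. Against E9.5, 3 of 9 were at least 2-fold lower, with a median of -0.79: Pf4 at -1.24, Gp9 at -1.49 and Treml1 at -1.51, of which Gp9 (-0.55) and Treml1 (-0.90) were within 2-fold with normexp. The summed level was lowest in the triple null pool, although Itgb3 was higher there than in MafG-intact E10.5 (0.24); the part of these cells in the regulators' differences was not tested.

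Macrophage and white cell markers were low in both the triple null E10.5 and MafG-intact E9.5 pools. All 7 that both E10.5 arrays detected were lower by 2-fold or more in triple null embryos, with a median of -1.55. Tyrobp was at -3.59, or -1.70 with normexp, the granule enzyme gene Mpo at -2.91, or -2.23 with normexp, the lysozyme gene Lyz2 at -1.80, or -0.80 where undetected probes were kept, and Coro1a at -1.55. Against E9.5, 0 of 7 were 2-fold lower, with a median of -0.15. The summed level of 14 markers was 0.860 on the triple null E10.5 array, against 3.30 on MafG-intact E10.5 and 0.935 on MafG-intact E9.5. The defining genes Adgre1, Ptprc and Cx3cr1, with Mrc1, C1qa and C1qc, were not above background on the triple null E10.5 and MafG-intact E9.5 arrays, nor was Aif1 on the triple null array. The part of these cells in the values of Runx1 and Myb, which white cells also use, was not tested.

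Neurons of the midbrain and spinal cord also use GATA2, GATA3 and TAL1. Of 9 such markers above background on both E10.5 arrays, 6 were lower by 2-fold or more in triple null embryos and 0 higher, with a median of -1.36. The GABA transporter gene Slc32a1 was at -2.07, Helt at -1.78 and Lhx1 at -1.65. With normexp Slc32a1 was at -1.71, Helt at -1.38 and Lhx1 at -1.36. Of the 9 markers, 7 lay below 0, among them Gata3 at -0.25. The 2 above 0 were Gad1 at 0.28 and Tal2 at 0.18. Against E9.5, 1 of 9 was 2-fold lower, with a median of -0.12. The summed level of 10 markers was 3.69 on the triple null E10.5 array and 7.31 on MafG-intact E10.5, with 5.03 on MafG-intact E9.5; the triple null and E9.5 arrays did not detect Gad2. The part of these neurons in the values of Gata2 and Tal1 was not tested.

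Endothelial markers differed little. Of 18, 0 were 2-fold apart in any comparison, which is near the small shares of all genes given above. The median of these markers was 0.16 between the E10.5 pools and -0.03 between the triple null and E9.5 pools. The farthest apart at E10.5 were Robo4 at -0.93 and Nos3 at 0.48. The summed level of the 18 was 45.5 on the triple null E10.5 array, against 44.3 on MafG-intact E10.5 and 45.5 on MafG-intact E9.5. Endothelium that forms stem cells was not read apart from the rest.

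To find the genes whose pattern was most like that of the regulators, each gene's 3 levels were centred on their mean and their Euclidean distance was taken to the median profile of the 9 regulators above background on every array, over 5672 brighter genes and 3 arrays. The nearest was the limb patterning gene Hoxa11, at a distance of 0.06, with differences of -0.78 between the E10.5 pools, 0.55 between the MafG-intact pools and -0.23 between the triple null and E9.5 pools. Next were the growth factor gene Tgfb3 at 0.06, the fatty acid oxidation gene Acadvl at 0.08, the sorbitol dehydrogenase gene Sord at 0.09 and the ephrin ligand gene Efnb1 at 0.09. With 3 arrays such a profile has few features to match.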

How the data were processed

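Whole embryo RNA was labelled with Cy3 and read on Agilent arrays of 1 colour, per the labels. Per the file headers, the authors read the arrays with Agilent Feature Extraction 9.5.3.1 (protocol GE1-v5_95_Feb07, design 014868, build mm7), and the deposited signal is intensity with the background subtracted, not logged. The value table they deposited holds the same intensity.

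Control spots were left out (43379 of 45018 spots remained), and each log2 intensity was set relative to its array's 75th percentile (1078 for triple null E10.5, 1420 for MafG-intact E10.5 and 1064 for MafG-intact E9.5), without the 59, 52 and 83 spots marked as outliers. Of 41170 probes, 22950 had 1 symbol by RefSeq accession (assembly GRCm38.p6) and gave 13184 genes; 18220 had none or several. Spots were averaged by probe, and probes by gene, leaving out probes that no array detected. Probes well above background made up 69.2% on triple null E10.5, 70.4% on MafG-intact E10.5 and 69.1% on MafG-intact E9.5.

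With 1 array a group there is no test. A gene was called where both arrays detected it (well above background) and it differed by 2-fold or more. Where 1 array of a pair detected it, a bound is given, its level there over the dim array's lowest detected signal or its own signal, whichever was higher. The members, the lists and the rule for named genes were chosen with earlier results of these data known. The rule took all members, from each list up to 4 genes at least 2-fold apart at E10.5 (or the 2 farthest), the 5 genes most alike, and the small Maf genes; some genes it takes are not reported here. The Maff and Mafk probes gave signal on every array (triple null against MafG-intact E10.5, -0.05 and 0.16); their place relative to the deletions is not known, and they check nothing. Motifs were matched as exact letters.

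Alternatives were normexp background correction (offset 50, on median spot intensity), quantile normalization, scaling on detected genes or on 10 spike-in probes, other filters and folds, the brightest probe and the deposited value table. The steps were tested on simulated data. Python 3.11.15, pandas 2.3.3, numpy 2.4.6, matplotlib 3.10.9, R 4.3.3 and limma 3.58.1 were used.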

Additional observations from a re-analysis of the deposited data

How the results depend on the processing

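No paired analysis was possible because each group was 1 array. Of 208 values of the 10 regulators under other settings, 203 stayed within the scanner's spot error of the value reported. Many of these could hardly move. Filters and the choice of the brightest probe leave a regulator of 1 probe unchanged. The deposited table holds the same intensity, and scaling on detected genes or spike-in probes shifts all genes alike. The 5 that moved were under normexp background correction. Gata1 was then at -0.71 and Gfi1b at -1.49 between the E10.5 arrays, and Runx1 at -0.05, 0.10 and 0.05 in the 3 comparisons. The sign turned for 3 values near 0 or dim, Myb between the E10.5 arrays (0.29 with normexp and 0.08 with quantile normalization) and Runx1 between triple null and E9.5 with normexp. Between the E10.5 pools the count of regulators lower by 2-fold or more in triple null embryos was 3 in the values reported, 2 with normexp, 2 at a 3-fold threshold, 7 at 1.5-fold, and 1 over genes at or above the median level, where 4 regulators were tested. At 1.5-fold, the counts were 4 between the MafG-intact pools and 2 between triple null and E9.5. Medians of the regulators stayed between -0.77 and -0.65, 0.44 and 0.50, and -0.29 and -0.22 for triple null against MafG-intact E10.5, MafG-intact E10.5 against E9.5, and triple null against E9.5. Normexp moved the median of all genes to 0.11 and -0.10 between the E10.5 pools and between the MafG-intact pools, from which the regulators' differences are then read, and the count of all genes at least 2-fold lower at E10.5 to 213 from 560 (higher, 54 from 123). Of 789 values of the other named genes, 737 stayed, 52 moved, 14 turned sign and 23 crossed 2-fold. The normexp offset of 50 by itself shrinks differences, most for dim genes, and its part was not separated from the background estimate. Dim genes, Runx1 and Myb among them, are limited by signal near background.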
